A study of Mus musculus with 12 samples.

Results

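Fatty acids are burned in mitochondria and built in the cytosol by separate sets of enzymes, and 41 genes of these pathways, of the 38887 genes in the tables, were followed in wild-type (WT) and IGF2BP2 knockout (KO) mouse macrophages. The genes were chosen by name as members of these pathways, and the rule uses no measured value. Of the 41, 22 serve oxidation, 4 activate long-chain fatty acids, 11 serve synthesis, elongation, desaturation or phospholipid remodelling, and 4 are lipases that release fatty acids from stored lipid. Oxidation and synthesis are described apart.

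Before a long-chain fatty acid can be used, an acyl-CoA synthetase couples it to coenzyme A, and the carnitine shuttle then carries it into the mitochondrial matrix, where the beta-oxidation spiral shortens it to acetyl-CoA. Synthesis runs in the other direction, from acetyl-CoA over malonyl-CoA to palmitate, which elongases and desaturases extend and unsaturate, and the polyunsaturated products are placed in phospholipids. Macrophages treated with interleukin-4 (IL-4) are known for a metabolism in which fatty acid oxidation has a large share.

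RNA-Seq libraries were made from bone marrow-derived macrophages (BMMs) of mice aged 3 to 4 months, which were differentiated for 6 days with 50 ng/ml M-CSF and then left untreated (M0) or treated for 8 h with 20 ng/ml IL-4 (M2). In the IGF2BP2 KO mice, exons 4 and 5 of Igf2bp2 were floxed and Cre was expressed from Lyz2, a gene of myeloid cells, and the WT animals were littermates without floxed alleles that carried Cre or not. Each of the 4 groups held 3 libraries from 3 mice per genotype, and M0 and M2 libraries with the same number deviated together, so that number was also used as a block. With 3 libraries a group, the p-values set each difference against a spread estimated over all 12 libraries together, and they take in the variation between these samples only. Genes with enough counts were tested with edgeR, with p-values adjusted over the 12846 genes tested, and an adjusted p under 0.05 counted as a call. Of the 41 genes 40 were tested, and Mgll (monoglyceride lipase) did not pass the filter on low counts, with a level of 0.01 to 0.15 TPM (a level per transcript length, scaled to a fixed total per library).

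The libraries held 20011792 to 39632770 counts, with the fewest in WT M2. In CPM (library-scaled counts normalized with the TMM method), Igf2bp2 was at 76.4 to 118 in WT M0, 178 to 233 in WT M2, 84.9 to 95.8 in KO M0 and 129 to 146 in KO M2, where counts over the whole gene include exons that were not deleted and cannot show the deletion. Lyz2 was at 7027 to 10541 CPM in WT M0 and at 22.1 to 33.2 CPM in KO M0, so that every KO against WT difference goes with loss of Lyz2 as well as of Igf2bp2, and the 2 cannot be told apart. All 8 macrophage markers were detected, with summed levels of 3971 to 4498 TPM in WT M0 and 4113 to 4228 TPM in KO M0. Of 7 adipocyte markers 5 (Plin1, Cidec, Cidea, Lep and Cfd) were at 0 in every library. The summed level of the others was at most 0.05 TPM in M0, and 0.39 to 1.17 TPM in WT M2 and 0.76 to 2 TPM in KO M2. Adipoq was called higher with IL-4 in WT and in KO (log2 fold changes 4.89 and 7.42). The dendritic cell markers summed to 0.19 to 0.47 TPM in WT M0, 0.89 to 1.08 in WT M2, 0.23 to 0.6 in KO M0 and 0.92 to 1.12 in KO M2. The summed markers of neutrophils and their precursors were at 19.8 to 49.7 TPM in WT M0 and 15.5 to 16.8 TPM in KO M0, and those of stromal cells at 11.9 to 22.4 and 3.64 to 13.6 TPM. In M2 the neutrophil sum was 13.2 to 31.4 TPM in WT and 12.0 to 17.2 TPM in KO, and the stromal sum 13.5 to 23.6 and 3.6 to 11.6 TPM, and the part of these cells in the genotype differences was not tested. In bulk samples, fewer cells of a type and less RNA per cell cannot be told apart.

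The promoters shown here belong to members whose values are described below, with sequences from RefSeq (GRCm38.p6), each 5′ to 3′ on the plus strand. Hadhb, Acsl1, Elovl1 and Elovl5 lie on that strand and Hadha on the minus strand. Hadha and Hadhb, the alpha and beta subunits of the mitochondrial trifunctional protein, start back to back on chromosome 5 with 85 bases between their annotated starts, which are in capitals at chr5:30155133-30155277. For Acsl1, the synthetase with the clearest difference between the genotypes in M0, the bases before an annotated start inside the gene (chr8:46490716-46490965) hold the sterol regulatory element TCACNCCAC, read here on the opposite strand and in capitals. For Elovl1, the elongase that rose with IL-4, a match to the STAT6 site, which is TTC, then 4 bases of any kind, then GAA, is in capitals in the bases before an annotated start inside the gene (chr4:118429451-118429700). For Elovl5, an elongase that fell with IL-4, the E-box CACGTG is in capitals at chr9:77917115-77917364.
Hadhb: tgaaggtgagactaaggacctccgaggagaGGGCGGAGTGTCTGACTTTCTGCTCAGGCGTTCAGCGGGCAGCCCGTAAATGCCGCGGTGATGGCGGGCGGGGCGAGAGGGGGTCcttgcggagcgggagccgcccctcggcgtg
Acsl1: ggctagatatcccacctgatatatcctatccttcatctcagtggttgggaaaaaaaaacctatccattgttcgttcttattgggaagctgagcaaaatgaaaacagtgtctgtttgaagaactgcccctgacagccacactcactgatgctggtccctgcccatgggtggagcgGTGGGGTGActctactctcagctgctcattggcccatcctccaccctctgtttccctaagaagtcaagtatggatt
Elovl1: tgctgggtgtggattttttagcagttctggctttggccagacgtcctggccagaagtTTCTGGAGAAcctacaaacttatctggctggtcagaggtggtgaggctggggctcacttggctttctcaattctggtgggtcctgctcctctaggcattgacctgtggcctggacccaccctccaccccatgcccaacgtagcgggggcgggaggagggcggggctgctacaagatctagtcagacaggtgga
Elovl5: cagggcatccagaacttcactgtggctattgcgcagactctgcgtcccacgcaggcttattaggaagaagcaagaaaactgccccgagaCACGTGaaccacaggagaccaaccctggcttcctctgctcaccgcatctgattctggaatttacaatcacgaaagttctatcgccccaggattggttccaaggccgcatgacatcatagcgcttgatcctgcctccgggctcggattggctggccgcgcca

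These motifs were searched on both strands of 300-base windows, from 250 bases before to 50 after each start, with no overlap between the motifs shown. Acsl1, Elovl1, Lipe and Mgll each had 2 windows, and a match in either was counted. Windows were found for 34 of the 41 genes and not for Acaa2, Acad9, Crat, Decr1, Fads1, Scd1 and Scd2. The sterol regulatory element was found in 1 of the 34 members (Acsl1), against 1.44% of all 27025 genes with a window, the STAT6 site in 1 (Elovl1), against 8.01%, and the E-box in 3 (Elovl5, Lipe and Mgll), against 8.09%. The direct repeat bound by PPAR with RXR, 2 copies of AGGTCA with 1 base between them, was found in 0 members and in 0.048% of all genes. A match is a run of letters and does not show that a factor binds there.

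Levels per transcript length spanned several orders of magnitude. In WT M0, lysosomal acid lipase Lipa, which frees fatty acids from lipoproteins that were taken up, was at 1157 ± 182 TPM (mean ± SD, n = 3), and the next was Elovl1, which elongates saturated and monounsaturated very long chains, at 224 ± 7.76 TPM. Then came Etfb and Etfa, subunits of the flavoprotein that passes electrons from the dehydrogenases to the respiratory chain, at 166 ± 10.1 and 123 ± 2.94 TPM, and Hadha and Hadhb at 125 ± 2.35 and 114 ± 9.18 TPM. The lowest after Mgll were Scd1 at 1.77 ± 0.507 TPM, Acss2 at 2.77 ± 0.382 TPM and Elovl6 at 4.28 ± 0.293 TPM. When the 41 genes were ordered by their mean in WT M0, 25 of the 40 pairs of neighbours overlapped in their libraries, among them Hadha with Etfa and Etfa with Hadhb, so that their order was not resolved. The plot of levels by role shows that most members kept to a narrow band in all 4 groups.

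**Figure D1:**
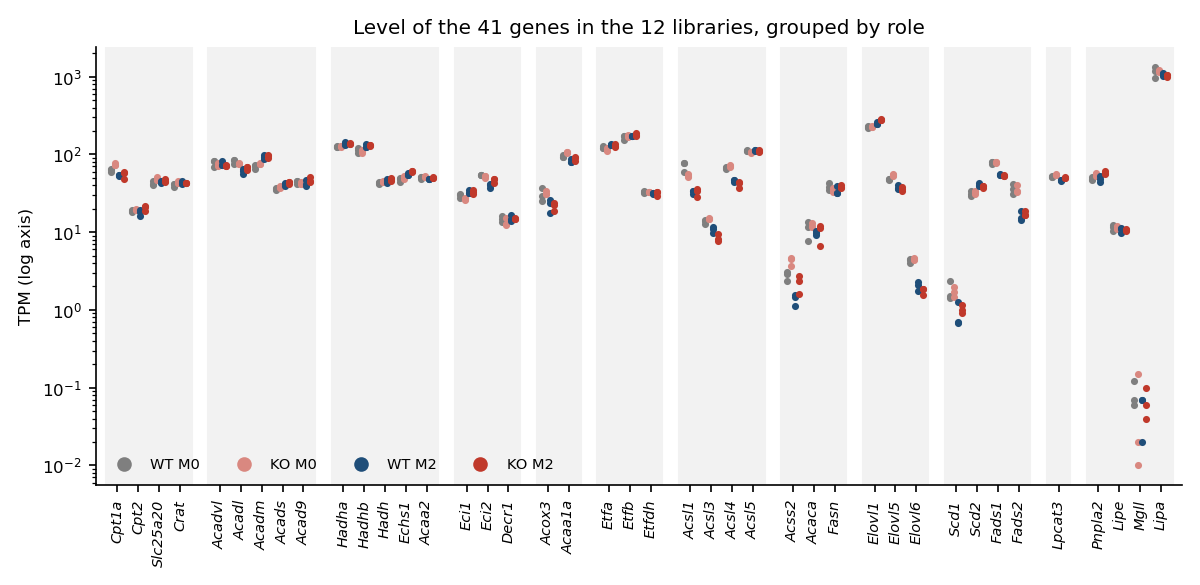
TPM on a log axis for each of the 41 genes in the 12 libraries, with 1 point per library, coloured by group, and grey bands that separate the roles in the order of the text. Lipa stands at the top near 1157 TPM in WT M0 and Mgll at the bottom at 0.01 to 0.15 TPM.

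The summed level of the 22 oxidation genes was 1396 ± 29.5 TPM in WT M0, 1414 ± 10.6 in WT M2, 1424 ± 1.1 in KO M0 and 1454 ± 3.68 in KO M2 (n = 3 each). The 4 synthetases together were at 263 ± 14.5, 202 ± 3.71, 245 ± 1.77 and 192 ± 9.75 TPM in the same order of groups, and the 11 synthesis genes at 527 ± 13.5, 496 ± 11.3, 541 ± 11.4 and 526 ± 8.17 TPM. The synthetases were thus lower in M2 than in M0 in every library of both genotypes, and the oxidation sum was higher in M2 than in M0 in all KO libraries and overlapped between M0 and M2 in WT.

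To ask how loss of IGF2BP2 touches these pathways in untreated macrophages, KO M0 was compared with WT M0. The differences were small. In KO, 2 genes of the carnitine shuttle (Cpt1a and Slc25a20) and the elongase Elovl5 were higher, and the synthetase Acsl1 was lower. These 4 of 40 members are 10%, close to the 9.78% called among all genes tested, of which 5.5% were higher and 4.27% lower. The median log2 fold change was 0.02 for the 22 oxidation genes, 0.04 for the 11 synthesis genes and -0.00 for all genes tested. The 3 libraries of each genotype did not overlap for 15 of 40 members (37.5%), against 31.1% of all genes.

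Acsl1 couples long-chain fatty acids to coenzyme A. It was at 156, 159.9 and 131 CPM in the 3 WT M0 libraries and at 114, 108 and 108 CPM in the 3 KO M0 libraries. All KO values lay below all WT values, with the third WT library nearest to KO. The log2 fold change was -0.44 (SE 0.08, edgeR adjusted p = 0.00423), a fold of 0.739, and it was called in every alternative fit and in each of the 6 fits without 1 library (adjusted p up to 0.0414).

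Cpt1a, which makes acylcarnitine at the outer mitochondrial membrane and is the main point of control of fatty acid entry, was at 147, 145 and 145 CPM in WT M0 and at 168, 183 and 173 CPM in KO M0. The genotypes did not overlap, and the log2 fold change was 0.26 (SE 0.05, edgeR adjusted p = 0.0115). Without the second KO library, or with limma on TPM, the call was lost (adjusted p = 0.0622 without that library).

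Slc25a20, the carrier that exchanges acylcarnitine for carnitine across the inner membrane, was at 41.4, 38.7 and 39.6 CPM in WT M0 and 44.0, 44.3 and 48.5 CPM in KO M0, again without overlap. Its log2 fold change was 0.19 (SE 0.05, edgeR adjusted p = 0.0395), and of the 6 fits without 1 library only that without the first WT library kept the call (adjusted p from 0.0413 to 0.165). It was also lost with no filter on low counts, with only the 6 M0 libraries and with limma on TPM. Their partners were not called. Cpt2, which turns acylcarnitine back into acyl-CoA, had a log2 fold change of -0.02 (95% interval -0.16 to 0.11) and Crat, which makes acetylcarnitine, of 0.10 (-0.02 to 0.23).

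Elovl5, which elongates polyunsaturated fatty acids, was at 68.2, 71.3 and 72.2 CPM in WT M0 and 83.0, 79.9 and 80.9 CPM in KO M0. The groups did not overlap, with log2 fold change 0.20 (SE 0.05, edgeR adjusted p = 0.0206). Of the fits without 1 library, only that without the third WT library kept the call (adjusted p from 0.0215 to 0.0681), and it was lost with limma on TPM.

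For the remaining genes of polyunsaturated fatty acids the M0 intervals bounded the difference. Fads1, a desaturase of polyunsaturated fatty acids, had a log2 fold change of 0.04 (95% interval -0.06 to 0.13) and Fads2, the desaturase that acts before it, of -0.02 (-0.30 to 0.27). Acsl4, which activates arachidonic acid, had 0.09 (-0.01 to 0.19), and Lpcat3, which places polyunsaturated chains in phospholipids, had 0.07 (-0.02 to 0.17). The 3 WT M0 libraries of Fads2 were at 24.0, 27.9 and 34.5 CPM, and its interval was the widest of these. Acss2, which makes acetyl-CoA from acetate, had the largest estimate among the members, 0.57 (SE 0.19, edgeR adjusted p = 0.0755), but it was low, at 3.46, 3.71 and 4.75 CPM in WT M0 and 4.59, 6.66 and 6.36 CPM in KO M0, and the groups overlapped in CPM. In TPM Acss2 did not overlap between the genotypes, at 2.35, 2.85 and 3.10 in WT M0 and 3.71, 4.52 and 4.66 in KO M0. Without the third WT library or without the first KO library it was called (adjusted p = 0.0381 and 0.045).

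**Figure D2:**
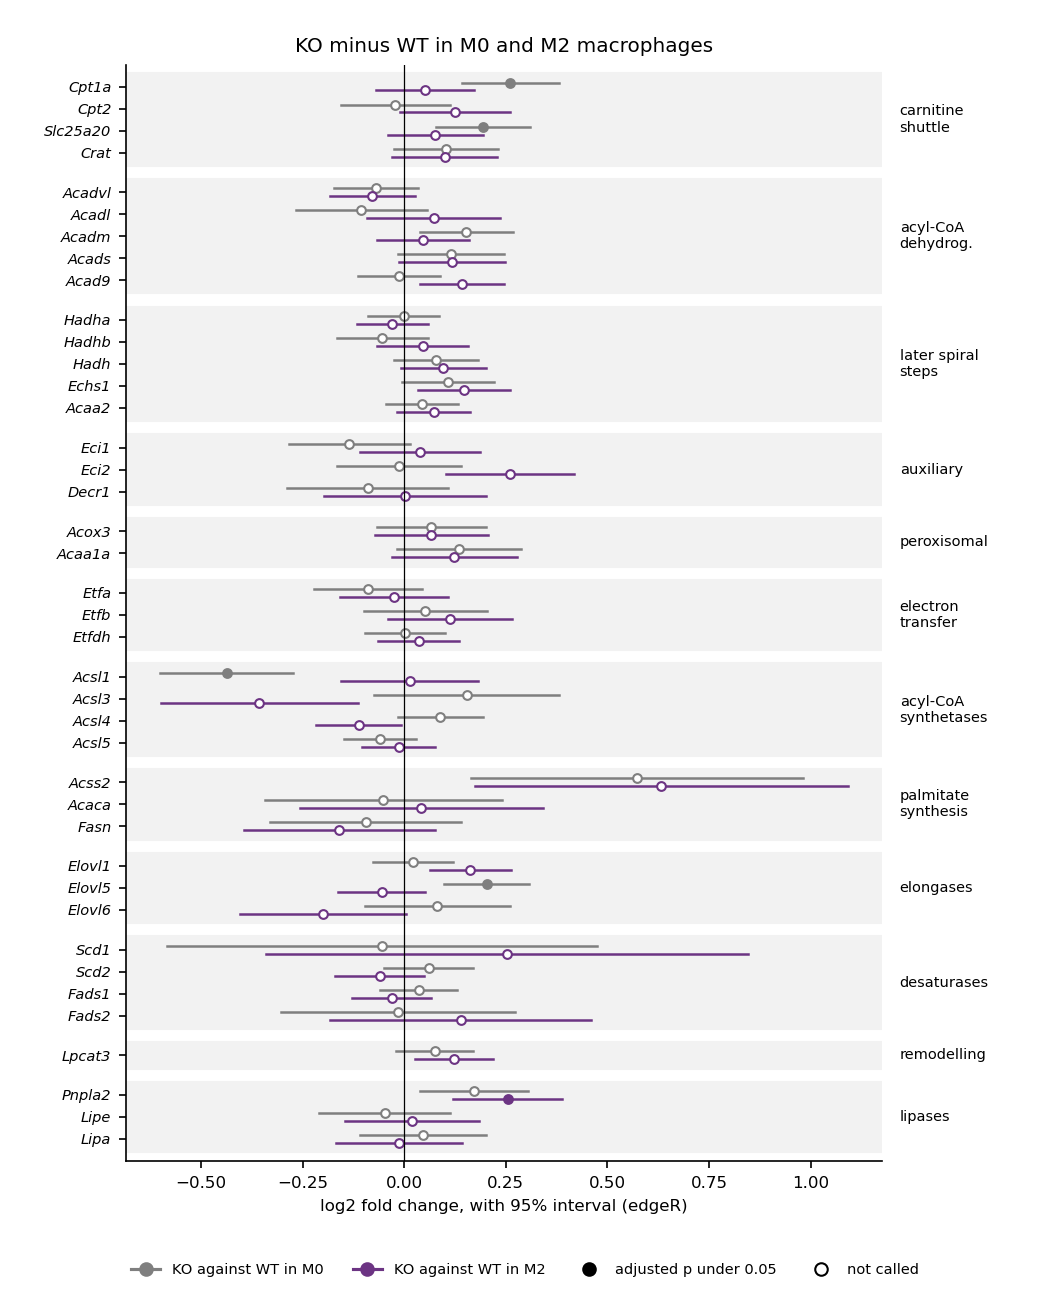
Log2 fold change of KO against WT (x axis, edgeR, lines are 95% intervals) for 40 genes by role (rows), in M0 (grey) and M2 (purple), with filled points for adjusted p under 0.05. The 4 genes called are filled in M0 and Pnpla2 alone in M2, and Acss2 and Scd1 have the widest intervals.

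In M2 macrophages, 1 of 40 members (2.5%) was called, against 2.68% of all genes tested (1.21% higher). This was Pnpla2, adipose triglyceride lipase, which takes the first fatty acid from triglyceride. It was at 57.0, 52.2 and 47.7 CPM in WT M2 and 62.3, 64.5 and 60.6 CPM in KO M2, with no overlap, and its log2 fold change was 0.25 (SE 0.06, edgeR adjusted p = 0.0498). In M0 it was at 50.8, 48.8 and 49.6 CPM in the WT libraries and at 53.4, 58.2 and 56.5 CPM in those of KO, with log2 fold change 0.17 (SE 0.06, edgeR adjusted p = 0.0989). The M2 call was at the threshold: it was lost with RLE size factors (adjusted p = 0.0517), with the library number as a block (adjusted p = 0.0538), with limma and with only the 6 M2 libraries. Of the fits without 1 library, only that without the first WT library kept it (adjusted p from 0.0245 to 0.159). With the block, Eci2 was called in its place (adjusted p = 0.0385).

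Of the 22 oxidation genes, 19 had an estimate above 0 in KO M2, against 6389 of the 12846 genes tested. The median log2 fold change of the oxidation genes was 0.07, against -0.00 for all genes. Of the 22, 0 were called by edgeR, 1 by DESeq2 (Eci2) and 0 by limma on TPM, and a shift of the group was not tested. With limma 15 of the 22 estimates were above 0, with a median of 0.04. Over all 40 members 9 had an unadjusted p under 0.05 (7 of them higher in KO), against 20.3% of all genes. Eci2, an isomerase that moves double bonds of unsaturated chains, was at 26.6, 27.7 and 30.9 CPM in WT M2 and 33.2, 32.6 and 36.0 CPM in KO M2, with log2 fold change 0.26 (SE 0.07, edgeR adjusted p = 0.0786). Elovl1 had 0.16 (edgeR adjusted p = 0.0796) and was called by DESeq2 (adjusted p = 0.0245). The libraries of the genotypes did not overlap for 11 of 40 members (27.5%), against 24.8% of all genes. Of the M0 calls, Acsl1 stood at a log2 fold change of 0.01 (95% interval -0.15 to 0.18), Cpt1a of 0.05 (-0.07 to 0.17), Slc25a20 of 0.08 (-0.04 to 0.19) and Elovl5 of -0.06 (-0.16 to 0.05). Acss2 was again the largest estimate, 0.63 (SE 0.21, edgeR adjusted p = 0.127). Acsl3 had the lowest estimate, -0.36 (edgeR adjusted p = 0.109), and was called without the first KO library (edgeR adjusted p = 0.0163). The M2 intervals of Fads1 (-0.13 to 0.07), Lpcat3 (0.03 to 0.22), Acsl4 (-0.22 to -0.01) and Fads2 (-0.18 to 0.46) are not adjusted for the number of genes, and none of the 4 was called.

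**Figure D3:**
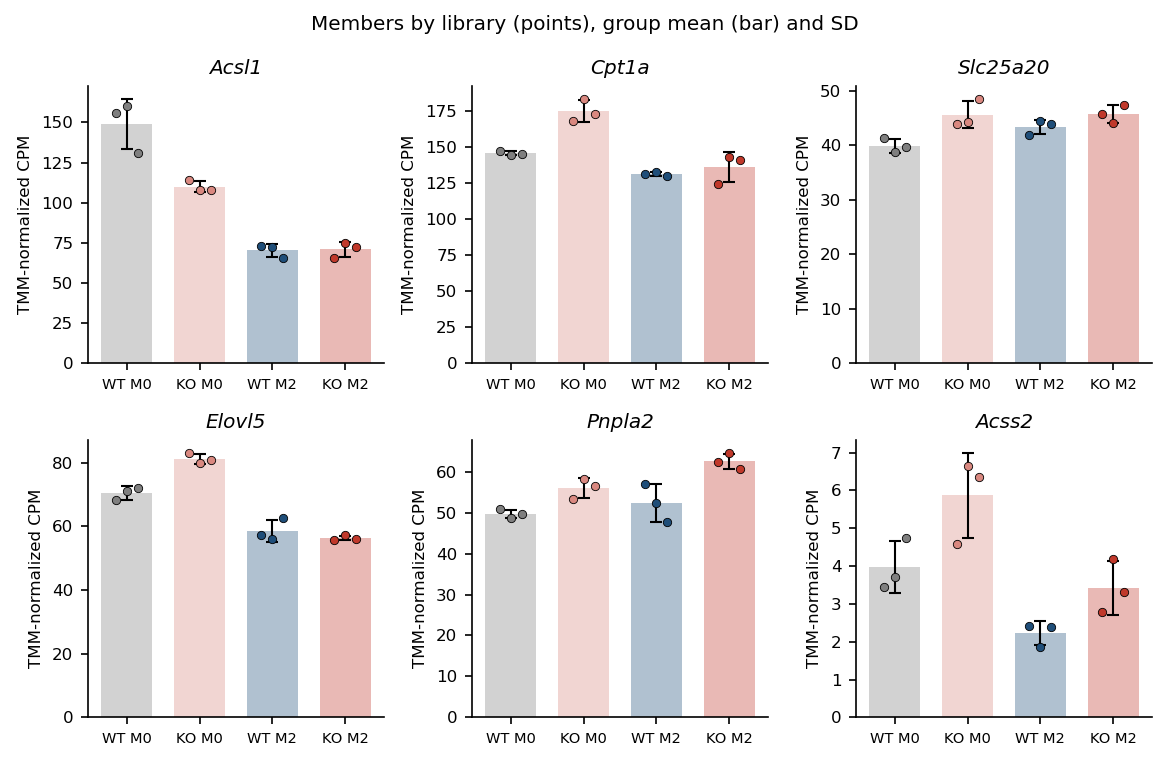
TMM-normalized CPM (y axis from 0) of 6 genes in the 4 groups, with 1 point per library, bars for the group mean and error bars for the SD (n = 3). Acsl1 is lower in KO M0 than in WT M0 and level between the genotypes in M2. The libraries of Acss2 overlap between the genotypes in M0 and not in M2.

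The treatment with IL-4 was compared within each genotype. In WT, 23 of 40 members were called (57.5%), against 50.0% of all genes tested, with 11 higher (24.9% of all genes were) and 12 lower (25.1%). In KO, 27 were called (67.5%), against 52.8% of all genes, with 15 higher (26.8%) and 12 lower (26.0%). In both genotypes 21 members were called, against 40.1% of all genes, all 21 in the same direction, as were 5106 of the 5146 such genes overall. The groups did not overlap for 27 of 40 members in WT (67.5%, all genes 55.2%) and 31 in KO (77.5%, all genes 63.4%). Of the members called in both genotypes, 9 oxidation genes rose and 2 fell, and 2 synthesis genes rose and 6 fell. The share of all genes called higher or lower in both genotypes is not given here, and a difference between the roles was not tested. On the TPM scale the upward part was smaller, as limma on log2(TPM + 1) called 7 higher and 15 lower in WT, and 8 and 13 in KO, where the median of all genes stood at -0.05 and -0.06. Of the oxidation genes, limma called 5 higher and 5 lower in WT, with 12 of the 22 estimates above 0, and 6 higher and 3 lower in KO, also with 12 above 0, against 16 and 18 above 0 in counts. The share of all genes that limma called higher or lower is not given here, so the limma counts of members stand without a background.

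**Figure D4:**
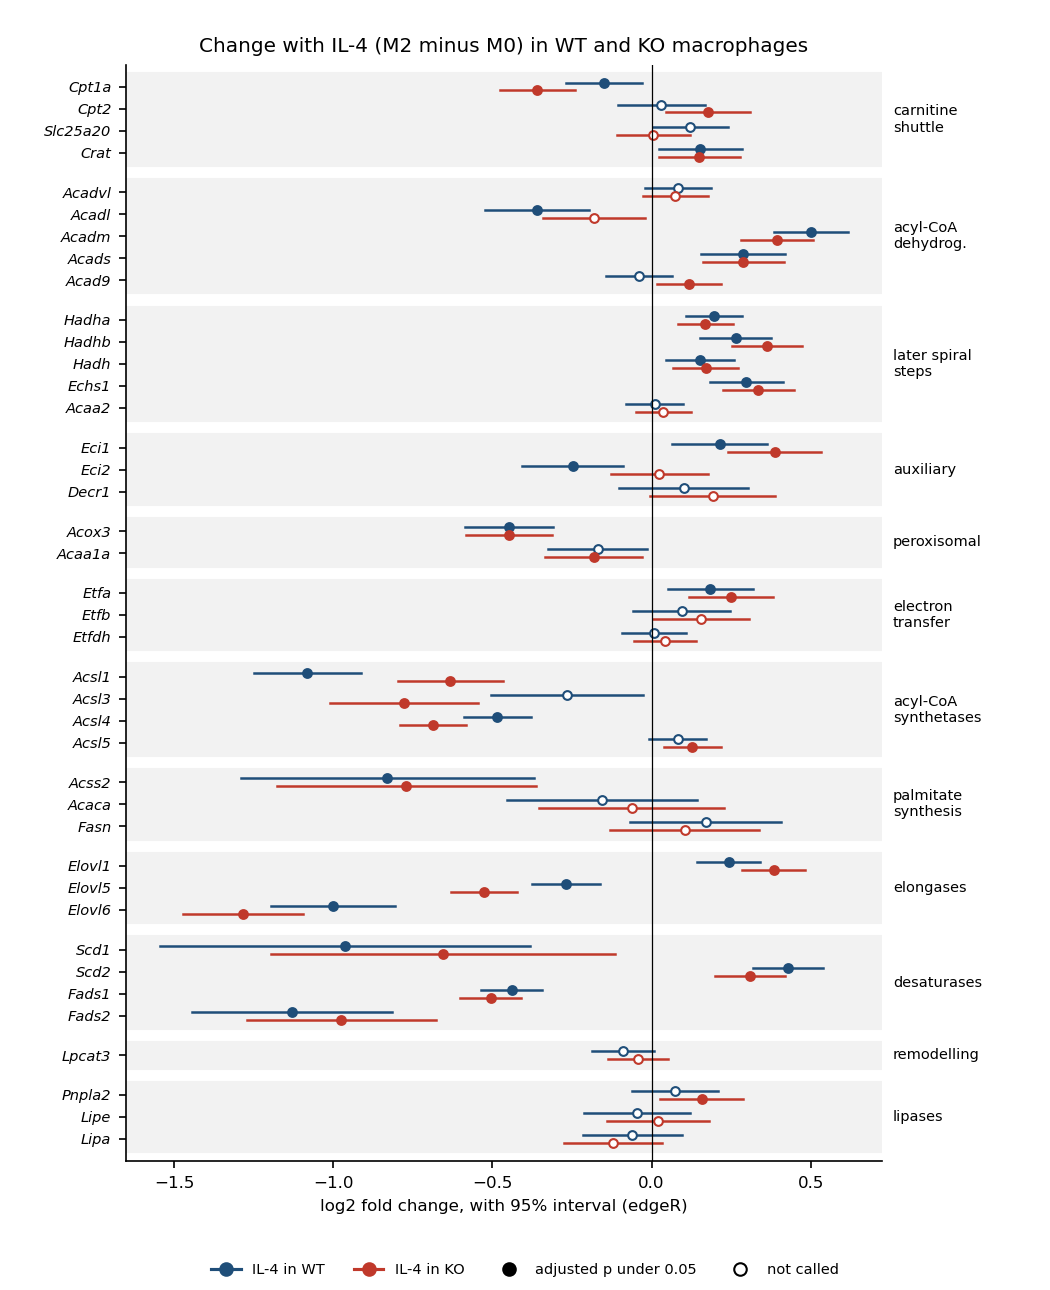
Log2 fold change with IL-4 (x axis, edgeR, lines are 95% intervals) for 40 genes by role (rows), in WT (blue) and KO (red), with filled points for adjusted p under 0.05. The 5 later steps of beta-oxidation lie to the right of 0, 4 of them with filled points, most synthetases, Elovl5, Elovl6, Scd1 and both Fads genes to the left, and Scd2 and Elovl1 to the right.

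Within oxidation, the dehydrogenases for medium and short chains and most later enzymes of the spiral rose, and the peroxisomal Acox3 fell, in both genotypes. The other peroxisomal member, the thiolase Acaa1a, had -0.17 (adjusted p = 0.065) in WT and -0.18 (adjusted p = 0.0437) in KO, where only the fit without the first KO M2 library kept the call among those without 1 library. With the mouse block it was called in WT as well (adjusted p = 0.00908), as it was with limma, with the filter at 1 CPM and without the first M0 or the third M2 library. Acadm, the medium-chain acyl-CoA dehydrogenase, was at 74.4, 72.0 and 71.6 CPM in WT M0 and 107, 103 and 98.0 CPM in WT M2, and at 81.0, 80.7 and 80.8 and 114, 99.7 and 106 CPM in KO M0 and M2. M2 values lay above M0 values in both genotypes, with log2 fold changes of 0.50 (SE 0.05, edgeR adjusted p = 5.62e-06) in WT and 0.39 (SE 0.05, edgeR adjusted p = 3.52e-05) in KO. Acads, for short chains, rose by 0.29 and 0.29 (edgeR adjusted p = 0.00163 and 0.00113). Of the 5 later enzymes of the spiral, 4 rose in both genotypes, with log2 fold changes from 0.15 (Hadh in WT) to 0.36 (Hadhb in KO), and Acaa2, the last thiolase, had 0.01 and 0.04 (95% intervals -0.08 to 0.10 and -0.05 to 0.12). The call of Hadh was lost with limma on TPM in both genotypes and, in WT, without the second M0, the first M2 or the second M2 library (adjusted p up to 0.0881), with no filter on low counts and with the 6 libraries alone. That of Hadha was lost in KO with limma (adjusted p up to 0.0805). Hadha and Hadhb, which start at the stretch printed above, rose by 0.20 and 0.26 in WT and by 0.17 and 0.36 in KO, and their TPM ratio was 1.1 ± 0.0808 in WT M0, 1.07 ± 0.0903 in WT M2, 1.16 ± 0.0417 in KO M0 and 1.03 ± 0.0382 in KO M2, with M0 above M2 in all KO libraries and overlap in WT. Reads cannot always be assigned to Hadhb, since 16.7% of its 75-base windows also occur in transcripts of other genes, mostly Gm13910.

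Acadl was at 74.6, 84.5 and 89.1 CPM in WT M0 and 58.4, 65.9 and 69.2 CPM in WT M2, log2 fold change -0.36 (SE 0.08, edgeR adjusted p = 0.00149). In KO it was at 77.5, 75.9 and 77.2 and 70.5, 63.3 and 69.7 CPM, log2 fold change -0.18 (SE 0.07, edgeR adjusted p = 0.0557), called with the block (adjusted p = 0.00363), with RLE size factors, other filters, DESeq2 and the 6 libraries alone. No overlap was seen in either genotype. Acox3, a peroxisomal oxidase of branched chains, was at 57.6, 52.6 and 48.4 CPM in WT M0 and 38.8, 37.0 and 40.5 CPM in WT M2, and at 54.5, 55.1 and 56.7 and 38.9, 41 and 41.9 CPM in KO. Its log2 fold changes were -0.45 (SE 0.06, edgeR adjusted p = 7.6e-05) and -0.45 (SE 0.06, edgeR adjusted p = 5.26e-05). Cpt1a fell, with log2 fold changes of -0.15 in WT and -0.36 in KO (edgeR adjusted p = 0.0395 and 0.000113), and the WT call was lost in each of the 6 fits without 1 library. Eci1, Etfa and Crat rose in both genotypes, from 0.15 (Crat in KO) to 0.39 (Eci1 in KO) by edgeR. The call of Crat was near the threshold. Of the 6 fits without 1 library, 4 lost it in WT and 5 in KO (adjusted p up to 0.166 and 0.164). It was kept without the third M0 or the first M2 library in WT and without the third M2 library in KO. It was lost with other filters and with limma on TPM, where Crat had -0.02 in KO. It was also lost with the 6 libraries alone in WT, and with RLE size factors and DESeq2 in KO. In WT, the call of Eci1 was lost without the second M0 or the third M2 library (adjusted p up to 0.0838) and that of Etfa without the first M0 or the third M2 library (up to 0.0796). Both were also lost with limma, and Eci1 with no filter on low counts and with the 6 libraries alone. Eci2, the other isomerase, had -0.25 (adjusted p = 0.0127) in WT, lost without the first M2 library (adjusted p = 0.0616), and 0.02 (adjusted p = 0.795) in KO. In TPM Eci2 was lower in M2 in KO as well, at 53.2, 53.0 and 49.65 in M0 and 43.1, 48.2 and 48.0 in M2. The effective length that the authors' quantification gave it averaged 1156 bases in KO M0 and 1245 in KO M2. The difference between the genotypes in this response was not called (0.27, edgeR adjusted p = 0.177). Cpt2 had 0.03 (adjusted p = 0.718) in WT and 0.18 (adjusted p = 0.0266) in KO, where of the fits without 1 library only that without the first M2 library kept the call (adjusted p up to 0.0822). It was lost with no filter on low counts and with limma. Acadvl, Decr1 and Etfb were not called in either genotype, and 39.6% of the windows of Etfb occur in Gm45233.

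Of the long-chain acyl-CoA synthetases, Acsl1 and Acsl4 fell in both genotypes and Acsl5 did not. In WT M2, Acsl1 was at 72.8, 72.4 and 65.7 CPM, and in KO M2 at 65.5, 74.7 and 72.6 CPM, below all M0 values given above, with log2 fold changes of -1.08 (SE 0.08, edgeR adjusted p = 1.43e-07) in WT and -0.63 (SE 0.08, edgeR adjusted p = 1.54e-05) in KO. Acsl4 was at 179, 178 and 180.1 CPM in WT M0, 129.6, 130.2 and 124 in WT M2, 185, 191 and 195 in KO M0 and 110.0, 122 and 122 in KO M2, with log2 fold changes of -0.49 (SE 0.05, edgeR adjusted p = 3.33e-06) and -0.69 (SE 0.05, edgeR adjusted p = 1.09e-07). Acsl3, which feeds lipid droplets, was at 20.6, 21.9 and 21.6 CPM in WT M0, 15.6, 18.3 and 19.5 in WT M2, 22.8, 24.6 and 23.9 in KO M0 and 16.8, 12.7 and 12.4 in KO M2. Its log2 fold change was -0.78 (SE 0.11, edgeR adjusted p = 4.95e-05) in KO, and the estimate in WT was -0.27 (SE 0.11, edgeR adjusted p = 0.06), which was called with the mouse as a block (adjusted p = 0.0474), with other filters, with limma on TPM, with the 6 libraries alone and without the third M2 library. Acsl5, a synthetase of mitochondria and the endoplasmic reticulum, had 0.08 (adjusted p = 0.12) in WT and 0.13 (adjusted p = 0.0191) in KO, where the call was lost in 3 of the 6 fits without 1 library (the first or the third M0 or the third M2), with no filter on low counts and with limma. Its share of the summed TPM of the 4 synthetases went from 42.3 ± 1.65% in WT M0 to 55.9 ± 1.06% in WT M2, and from 43.4 ± 0.275% to 57.3 ± 1.37% in KO. The share of Acsl1 went from 27.0 ± 2.42% to 16.2 ± 0.769% in WT and from 21.7 ± 0.668% to 16.9 ± 1.13% in KO.

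Among the synthesis genes, some close paralogs moved in opposite directions. Elovl6, which extends palmitate to stearate, was at 13.8, 14.5 and 13.4 CPM in WT M0, 7.68, 7.16 and 5.98 in WT M2, 14.5, 15.1 and 14.6 in KO M0 and 5.65, 6.16 and 6.30 in KO M2. It fell, with log2 fold changes of -1.0 (SE 0.09, edgeR adjusted p = 1.25e-06) in WT and -1.28 (SE 0.09, edgeR adjusted p = 7.43e-08) in KO, and Elovl5 fell with -0.27 (SE 0.05, edgeR adjusted p = 0.000574) and -0.53 (SE 0.05, edgeR adjusted p = 1.28e-06), with 57.3, 56.0 and 62.6 CPM in WT M2 and 55.9, 57.2 and 56.1 CPM in KO M2. Elovl1, in contrast, rose by 0.24 (SE 0.05, edgeR adjusted p = 0.000687) and 0.38 (SE 0.05, edgeR adjusted p = 1.3e-05). Elovl1 held 81.2 ± 0.281% of the summed TPM of the 3 elongases in WT M0 and 86.4 ± 0.798% in WT M2, and 79.4 ± 0.267% and 88.0 ± 0.730% in KO M0 and M2.

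The stearoyl-CoA desaturases, which make oleate from stearate, split as well. Scd1 was at 3.65, 3.94 and 6.46 CPM in WT M0, 1.82, 1.91 and 3.47 in WT M2, 5.10, 4.53 and 3.87 in KO M0 and 2.64, 2.74 and 3.15 in KO M2. Of the WT libraries, the third was the highest in M0 and in M2, and the log2 fold changes were -0.96 (SE 0.27, edgeR adjusted p = 0.0093) in WT and -0.66 (SE 0.25, edgeR adjusted p = 0.0417) in KO, the latter lost in 5 of the 6 fits without 1 library (adjusted p up to 0.123). The KO call was also lost with limma on log2(TPM + 1) when only genes with a mean of at least 1 TPM were fitted. Scd2, the main isoform in these cells, rose by 0.43 (SE 0.05, edgeR adjusted p = 1.56e-05) and 0.31 (SE 0.05, edgeR adjusted p = 0.000197). Scd1 held 5.36 ± 1.81% of their summed TPM in WT M0 and 2.09 ± 0.647% in WT M2, and 4.94 ± 0.487% and 2.57 ± 0.259% in KO. Of the 75-base windows of Scd1 3.15% and of Scd2 1.78% occur in other genes, each other included, so that reads can be exchanged to that extent.

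Both desaturases of polyunsaturated fatty acids fell. Fads2, the first enzyme on linoleic and alpha-linolenic acid, was at 24.0, 27.9 and 34.5 CPM in WT M0, 11.6, 12.4 and 15.4 in WT M2, 31.8, 27.2 and 26.4 in KO M0 and 16.4, 13.4 and 13.6 in KO M2, without overlap between M0 and M2. Its log2 fold changes were -1.13 (SE 0.14, edgeR adjusted p = 2.96e-05) and -0.98 (SE 0.14, edgeR adjusted p = 5.92e-05). Fads1 fell, with -0.44 (SE 0.04, edgeR adjusted p = 3.64e-06) and -0.51 (SE 0.04, edgeR adjusted p = 7.58e-07). Fads1 and Fads2 lie head to head on chromosome 19 with 81141 bases between them. Acss2 fell as well, with -0.83 (SE 0.21, edgeR adjusted p = 0.00555) and -0.77 (SE 0.19, edgeR adjusted p = 0.00379). Acaca, which makes malonyl-CoA, and Fasn, fatty acid synthase, were not called in either genotype, with 95% intervals of -0.46 to 0.14 and -0.07 to 0.41 in WT. With the block or without the first M0 library, Fasn was called in WT (adjusted p = 0.0414 and 0.0357). For Fasn the direction in WT depended on the unit, 0.17 in counts and -0.16 on log2(TPM + 1), and the effective length that the authors' quantification gave it ranged from 4994 to 7677 bases between libraries. Of the windows of Acaca 26.8% occur in other genes, mostly Gm5182. Lpcat3 was not called, with intervals of -0.19 to 0.01 in WT and -0.14 to 0.05 in KO.

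**Figure D5:**
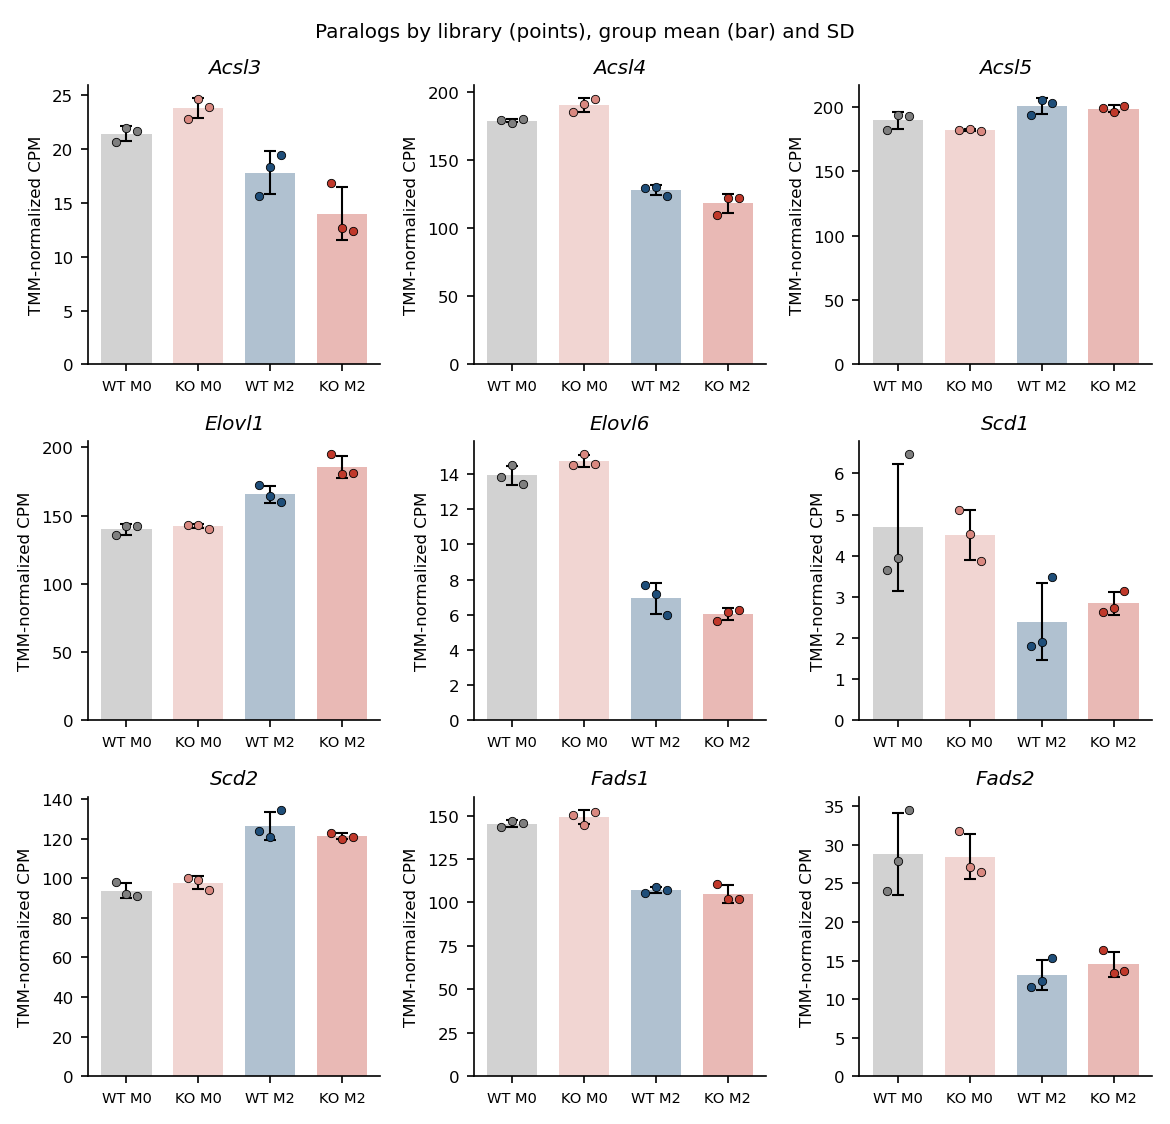
TMM-normalized CPM (y axis from 0) of 9 paralogs in the 4 groups, with 1 point per library, bars for the group mean and error bars for the SD (n = 3). Elovl6, Scd1, Fads1, Fads2, Acsl3 and Acsl4 are lower in M2 than in M0 and Elovl1 and Scd2 are higher, in both genotypes.

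Of the 3 lipases tested, 1 was called, in KO. Pnpla2 had 0.07 (adjusted p = 0.352) in WT and 0.16 (adjusted p = 0.0449) in KO, and the KO call was lost in all 6 fits without 1 library but that without the second M0 library, with RLE size factors, with other filters and with limma on TPM (adjusted p up to 0.433). Lipa was at 2068, 1852 and 1614 CPM in WT M0, 1827, 1800.5 and 1677 in WT M2, 1914, 1866 and 1935 in KO M0 and 1725, 1749 and 1782 in KO M2, with 95% intervals of -0.22 to 0.09 in WT and -0.28 to 0.03 in KO, where it was called lower with the block (adjusted p = 0.0412) and with the 6 libraries alone, and in WT it was called without the third M0 library. Lipe, hormone-sensitive lipase, was at 19.2, 16.5 and 18.6 CPM in WT M0, 16.0, 18.2 and 18.3 in WT M2, 18.2, 16.8 and 17.6 in KO M0 and 18.4, 17.1 and 17.8 in KO M2. Its groups overlapped in both genotypes, with intervals of -0.21 to 0.12 and -0.14 to 0.18.

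Whether KO and WT responded unequally to IL-4 was tested as an interaction, which uses the same 12 libraries as the comparisons above. Of 40 members 1 was called (2.5%), against 3.24% of all genes tested (1.11% higher). This was Acsl1, which fell less in KO, by a difference of 0.45 (SE 0.11, edgeR adjusted p = 0.0424). In M2 the libraries of the genotypes overlapped, and in M0 they did not. The call was near the threshold. It did not hold in 10 of the 12 fits without 1 library (adjusted p from 0.00783 to 0.128), the exceptions being those without the third WT M0 library or the first KO M2 library, nor with limma on TPM (adjusted p up to 0.238). Acsl3 and Acsl4 had differences of the opposite sign, -0.51 (SE 0.15, edgeR adjusted p = 0.0938) and -0.20 (SE 0.07, edgeR adjusted p = 0.141), and were called by DESeq2, as was Elovl5, whose difference was -0.26 (SE 0.07, edgeR adjusted p = 0.0633). Without the first KO M2 library Acsl3 was called as well (edgeR adjusted p = 0.013). With the mouse as a block 2 members were called, Acsl1 and Elovl5 (adjusted p = 0.037). The calls over all genes tested rose as well, from 416 to 1003. The 95% interval of the difference was -0.27 to 0.05 for Acadm, -0.15 to 0.10 for Hadha, -0.20 to 0.07 for Fads1 and -0.28 to 0.59 for Fads2.

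Other genes of these pathways were taken from lists of 37 oxidation genes, 32 synthesis genes, 30 genes of triglycerides and lipid droplets and 24 regulators, of which 32, 25, 26 and 21 were tested. In M0, 3, 2, 5 and 0 of these were called between the genotypes, that is 9.38%, 8%, 19.2% and 0%, against 9.78% of all genes, and in M2 0, 0, 1 and 1, against 2.68% of all genes. Among the oxidation genes, Ivd, of leucine breakdown, was higher in KO M0 (log2 fold change 0.29, adjusted p = 0.00539), and Nudt7, a peroxisomal CoA hydrolase, was lower (log2 fold change -0.41, adjusted p = 0.0158). The call of Ivd was lost with each limma fit (adjusted p up to 0.126) and that of Nudt7 without the third KO library (adjusted p = 0.0731). Of the synthesis genes, Hacd2, a dehydratase of the elongation cycle (log2 fold change -0.27, adjusted p = 0.0122), and Elovl7 (log2 fold change -0.84, adjusted p = 0.027) were lower. Without the second KO library the call of Hacd2 was lost (adjusted p = 0.0626), and for Elovl7 only the fit without the first WT library kept it (adjusted p from 0.0181 to 0.1). Both calls were also lost with limma on log2(TPM + 0.1).

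Of the lipid droplet genes, 4 were higher and 1 was lower in KO M0. Plin2, the main droplet coat protein of macrophages, was at 1942, 1776 and 1922 CPM in WT M0 and 2231, 2377 and 2462 CPM in KO M0, without overlap. Its log2 fold change was 0.33 (SE 0.08, edgeR adjusted p = 0.0285), and the call was lost in 3 of the 6 fits without 1 library, the second WT, the second KO or the third KO (adjusted p up to 0.11), and with each limma fit (adjusted p up to 0.123). Plin3 (log2 fold change 0.27, adjusted p = 0.00956), Slc27a1, a fatty acid transporter (log2 fold change 0.27, adjusted p = 0.00602), and Soat1, which esterifies cholesterol (log2 fold change 0.45, adjusted p = 0.00168), were higher, and Fitm2, which helps droplets to bud, was lower (log2 fold change -0.42, adjusted p = 0.02). Of the fits without 1 library, only those without the third WT or the first KO library kept the call of Fitm2 (adjusted p up to 0.0949), and it was lost with limma and with the 6 libraries alone. In M2, Hilpda, an inhibitor of Pnpla2, was at 63.7, 63.4 and 58.8 CPM in the WT libraries and at 75.4, 74.9 and 79.6 CPM in those of KO (log2 fold change 0.31, adjusted p = 0.0119), and Ppard, a nuclear receptor for fatty acids, was higher in KO (log2 fold change 0.58, adjusted p = 0.0176). Both calls were lost with limma and without the third KO library (adjusted p = 0.068 for Hilpda), and that of Ppard also without the second WT or the second KO library (adjusted p up to 0.0852). Acad9, a dehydrogenase that also assembles respiratory complex I, had 0.12 (adjusted p = 0.0497) with IL-4 in KO. The call was lost with the block (adjusted p = 0.0677), in each of the 6 fits without 1 library and in every other alternative (adjusted p from 0.056 to 0.204).

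Of all genes tested, 24.9% rose and 25.1% fell with IL-4 in WT, and 26.8% and 26.0% in KO. With IL-4, 11 of the 32 other oxidation genes rose and 3 fell in WT, and 15 rose and 6 fell in KO. Of the 25 other synthesis genes 7 rose and 9 fell in WT, and 9 and 10 in KO. Of the 26 genes of triglycerides and droplets 10 rose and 7 fell in WT, and 10 and 8 in KO, and of the 21 regulators 8 rose and 1 fell in WT, and 10 and 5 in KO. Mboat2, an acyltransferase of phospholipids, was at 0.259, 0.0985 and 0.0389 CPM in WT M0 and 5.77, 8.09 and 6.90 CPM in WT M2, and the fold of so low a gene depends on the prior count. Abcd2, a peroxisomal importer, rose by 2.19 (adjusted p = 1.2e-07) in WT and 1.57 (adjusted p = 1.71e-06) in KO, and Acss1, the mitochondrial acetate enzyme, by 1.71 (adjusted p = 2.51e-08) and 1.97 (adjusted p = 4.81e-09), opposite to its cytosolic relative Acss2. Elovl7 fell (-1.93 and -0.84), Hacl1, of alpha-oxidation, had log2 fold changes of -0.66 and -0.62, and Ehhadh, a peroxisomal enzyme, was not called. Of the acyltransferases, Agpat3 rose (1.68 and 1.55), and Agpat4 (-1.66 and -1.51) and Gpat3 (-2.66 and -2.31) fell. Among the regulators, Nr1h3, which encodes LXR alpha and activates Scd1 and Srebf1, fell, with -1.60 (adjusted p = 1.93e-07) in WT and -1.54 (adjusted p = 1.41e-07) in KO. Insig2, which holds SREBP in the endoplasmic reticulum, rose by 1.04 (adjusted p = 2.55e-09) and 1.09 (adjusted p = 1.33e-09), and Ppargc1b, a coactivator of oxidation genes, by 1.13 (adjusted p = 0.000134) and 1.09 (adjusted p = 0.000132).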

How the data were processed

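Poly(A)-enriched RNA of BMMs was sequenced in 12 libraries, and the submitters' processing notes name FastQC 0.11.2 and DESeq2 1.40.2. Single reads of 75 bases were processed by the authors with the Grape-nf pipeline against GRCm38, and the annotation release of that step is not given in the sources used here. The authors deposited expected counts per gene, which need not be whole, with TPM, the posterior mean TPM and the effective length of each gene, in the columns of an RSEM gene table. The expected counts were rounded to whole numbers. The authors' own comparisons, as fold changes and p-values in further deposited tables, were not used, and only gene symbols were read from them. The number of per-sample columns left unused was 0. Samples were grouped by the genotype and treatment labels.

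Genes were filtered with filterByExpr, normalized with TMM and fitted with edgeR 4.0.16 (quasi-likelihood, R 4.3.3) over all 12 libraries, with 5 contrasts and Benjamini-Hochberg adjustment over 12846 genes. Intervals are 95% intervals of the log2 fold change. An exact permutation test of 3 against 3 libraries cannot go below p = 0.1, so that none was used. The scripts were tested on simulated data. Alternatives were RLE size factors, other filters, DESeq2 1.42.0, limma 3.58.1 on log2(TPM + 1) and log2(TPM + 0.1), the 6 libraries compared alone, a replicate block and leaving out each library.

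Libraries that share a number in the labels were checked for pairing by the correlation of their deviations from the group means. Between M0 and M2 it was 0.331, 0.103 and 0.364 in WT and 0.166, 0.16 and 0.209 in KO, and the numbers were taken to pair these libraries. The main fit has no term for the mouse, so its p-values for IL-4 and for the difference do not use this pairing, which enters only with the block. Across genotypes the correlation lay between -0.068 and 0.04, and the libraries share only a number. Library totals of 20011792 to 39632770 counts set the counting error. Levels were compared between genes in TPM only. Shared sequence was counted over 75-base windows of the transcripts of GENCODE M21 (GRCm38), which also gave gene coordinates and may not be the authors' release, and promoters came from RefSeq.

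Values in every library are given for members called between the genotypes or in the difference, and for the 3 tested members of each set with the largest IL-4 change in WT, and genes of the other lists were named in the same way, apart from 1 gene that enters the counts and is not reported here. Further genes were named after their values were seen. The members and lists were chosen with earlier results of these data known.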

Additional observations from a re-analysis of the deposited data

Results flagged for a closer look

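By the test of the difference itself (KO minus WT, log2 scale), KO and WT responded unequally to IL-4 for 1 member and, among the genes reported here, 4 genes of the other lists. Of all genes tested 3.24% were called in this test, and of the lists of other oxidation genes, other synthesis genes, genes of triglycerides and droplets and regulators 3.12%, 0%, 7.69% and 9.52%. Acsl1 fell less in KO, with a difference of 0.45 (SE 0.11, edgeR adjusted p = 0.0424), from -1.08 in WT and -0.63 in KO.

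Insig1, which holds SREBP in the endoplasmic reticulum when sterols are high, had the difference of largest size among them, -0.46 (SE 0.09, edgeR adjusted p = 0.016), with IL-4 responses of 0.02 in WT and -0.45 in KO. Soat1, which esterifies cholesterol, rose less in KO, with a difference of -0.42 (SE 0.09, edgeR adjusted p = 0.0279) from 0.73 in WT and 0.31 in KO. Plin3, a lipid droplet coat protein, rose less in KO as well, with a difference of -0.35 (SE 0.08, edgeR adjusted p = 0.03) from 0.63 and 0.29. Stat6, the transcription factor of the IL-4 receptor, had a difference of -0.23 (SE 0.06, edgeR adjusted p = 0.048) from -0.05 and -0.28. These 5 tests share all 12 libraries, and Acsl1, Soat1 and Plin3 are also among the genes called between the genotypes in M0, which the difference contains. Most of these calls were near the threshold. Of the 12 fits without 1 library, the call of Insig1 was lost in 3, those without the second WT M2, the second KO M0 or the third KO M2 library (adjusted p up to 0.0569). That of Soat1 was lost in 8 (up to 0.084) and kept without the first or the third WT M0, the third WT M2 or the first KO M2 library, and that of Plin3 was lost in 8 (up to 0.0941) and kept without the first or the third WT M0, the first WT M2 or the first KO M2 library. That of Stat6 was lost in 9 (up to 0.129) and kept without the third WT M0, the third WT M2 or the first KO M2 library, and that of Acsl1 in 10 (up to 0.128). The calls of Soat1, Stat6 and Acsl1 were also lost with each limma fit on TPM, and that of Stat6 with no filter on low counts as well.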

How the results depend on the processing

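The number of members called between the genotypes in M0 was 4, but 1 with each of the 3 limma fits on TPM, 3 with no filter on low counts and with the 6 libraries alone, and 1 to 4 without 1 library (2 without WT library 2 or KO library 3, 1 without KO library 2). In M2 it was 1, but 0 with RLE size factors, with each limma fit and with the 6 libraries alone, 3 with DESeq2 (Pnpla2, Eci2 and Elovl1), and 0 to 1 without 1 library. The difference had 1, but 4 with DESeq2, 0 with each limma fit and 0 to 2 without 1 library. The IL-4 counts of 23 in WT and 27 in KO were 19 to 23 and 20 to 23 without 1 library. Of the members called, Acsl1 in M0, 17 with IL-4 in WT and 18 in KO kept their call in every alternative run. The cause was not tested.

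With the replicate block, 2 members were called for the difference, and 4 in M0, 1 in M2, and with IL-4 26 in WT and 28 in KO. Over all genes tested, the block called 1003 for the difference, against 416 without it. It called 1322 of all genes in M0, 413 in M2, and with IL-4 7016 in WT and 7472 in KO. The calls it moved are given in the report, and the block changed no other call of a member. Between the genotypes, libraries share only a number and are not pairs.

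Among the members given with values in the report, the directions that turned were those of Crat, which was called, and of comparisons in which edgeR over all 12 libraries did not call the member. With the limma fits, Acsl1 in M2 was -0.013, and with IL-4 Fasn was -0.16 and Pnpla2 -0.011 and -0.012 in WT, and Crat was -0.017 and Lipe -0.071 and -0.077 in KO. Without 1 library, Fads2 in M0 ranged from -0.13 to 0.13 and Acsl1 in M2 from -0.032 to 0.067, and with IL-4 Lipa in WT ranged from -0.15 to 0.030, Lipe in WT from -0.11 to 0.016 and Lipe in KO from -0.0087 to 0.050. Of the 22 oxidation estimates, limma on TPM put 15 above 0 in M2, against 19 by edgeR, and 12 with IL-4 in each genotype, against 16 in WT and 18 in KO, so that further members turned.

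With posterior mean TPM, the oxidation sum was 1389 TPM in WT M2, 1401 in KO M0 and 1434 in KO M2, the synthetase sum 242 in KO M0 and the synthesis sum 516 in KO M2. The share of Acsl3 was 5.74% in WT M0, 6.67% in KO M0 and 6.37% in WT M2, that of Acsl5 42.6% in KO M0 and 54.5% in WT M2, that of Elovl1 80.8% in WT M0 and 78.9% in KO M0, and that of Elovl5 17.7% and 19.5%. Members with few counts, such as Acss2 and Scd1, had the widest intervals.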
